A study of Mus musculus with 6 samples.

Results

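The replication-dependent histone genes were followed in RNA-seq data from mouse CD8T cells after coculture with other cells that had or had not been given DB2313. This set was chosen with earlier results of these data known, and its genes were picked by name and biotype. They are the protein-coding genes whose symbols start with Hist1h, Hist2h, Hist3h or Hist4h, and 67 of the 54532 genes in the count table met this rule. Of these, 6 encode the linker histone H1, 18 encode H2A, 18 encode H2B, 12 encode H3 and 13 encode H4. The genes lie in clusters, with 54 on chromosome 13, 10 on chromosome 3, 2 on chromosome 11 and 1 on chromosome 6.

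In both groups, mouse spleen CD8T cells stimulated with anti-CD3 and anti-CD28 beads were cocultured for 24 h with cells that had been activated with 10 ng/mL interferon gamma for 12 h. In the DB2313 group the cocultured cells had been treated with 14 nM DB2313, which inhibits Spi1 (PU.1), a transcription factor of myeloid cells, and in the control group they had not. The methods of the study call the cocultured cells macrophages, whereas the labels call them DC cells. Each group had 3 samples, and nothing states whether these were separate cultures, so p-values measure only the spread between these samples.

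Library totals ranged from 16611975 to 18596217 counts. T cell markers and macrophage markers were both present in all libraries. The summed T cell markers took 0.329% to 0.333% of the control counts and 0.524% to 0.536% of the DB2313 counts, and the macrophage markers took 1.36% to 1.39% and 0.574% to 0.584%, respectively. All 20 T cell markers rose with scaling to trimmed means (TMM), while 18 of 20 macrophage markers fell and 2 rose. Of the 10 dendritic cell markers, 7 fell, 1 rose, 1 did not pass the test, and Siglech was at 0 in all libraries. Their sum took 0.164% to 0.167% of the control counts and 0.148% to 0.153% of the DB2313 counts. Of the other markers tested, 8 of 9 for neutrophils fell and 1 rose, and 5 of 5 for myeloid progenitor granules rose. For B cells 5 of 8 rose, 1 fell and 2 did not pass the test. For erythroid cells 1 of 4 rose and 3 did not pass. Over all tested genes, 20.8% were called higher and 24.6% lower with TMM scaling. In such bulk samples, fewer cells of a type and less RNA per cell cannot be told apart.

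Replication-dependent histone genes supply the histones that package newly made DNA, so their mRNAs are known to build up in S phase and to be destroyed when replication stops. Their mRNAs are the known exception among the messengers of animal cells, since most of them end in a short stem-loop in place of a poly(A) tail. The stem-loop is bound by Slbp, which is needed for the processing, export and translation of these mRNAs. Some of these genes also give longer polyadenylated transcripts, which are known from cells that have left the cell cycle. Whether the libraries were made from poly(A)-selected or rRNA-depleted RNA was not given in the sources used here.

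The stem-loop was looked for in the annotated transcript of each gene, because it is what sets these mRNAs apart. The coordinates of all 67 genes in the count table were those of GENCODE mouse release 21 (GRCm38). A perfect hairpin of 16 bases, with 6 bases in each arm of the stem and 4 in the loop, was found 3′ of the stop codon in 46 of 67 genes. It started 21 to 58 bases after the stop codon (median 31). There were 8 sequence variants. The loop is shown in capitals in 5 of them, each named for a gene described in the text and written 5′ to 3′ as DNA:
Hist1h1c: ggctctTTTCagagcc
Hist1h3c: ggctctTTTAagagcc
Hist1h4d: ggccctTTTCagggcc
Hist1h4i: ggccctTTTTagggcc
Hist1h3g: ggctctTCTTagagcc

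The form in Hist1h1c was shared by 26 genes of the H1, H2A, H2B and H3 classes, Hist3h2a and Hist3h2ba among them. The form in Hist1h3c was found in 6 genes. The H4 genes had other stems, and the form in Hist1h4d was found in 7 genes, all of class H4. A further H4 stem, not printed above, was found in 2 genes, Hist1h4b and Hist1h4j. The form in Hist1h4i was found in 2 genes, and that in Hist1h3g in 1. Of the 21 genes with no stem-loop, 13 had an annotated transcript that ends at the stop codon, so their transcripts held no place for it. Hist2h2be and Hist1h2bc were annotated beyond the stop codon by 2192 and 742 bases and had no such hairpin there.

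The level of the histone genes was low in all libraries. Together they took 9431 counts over the 6 libraries, and Hist1h1c alone took 32.8% of these. The top 3 genes (Hist1h1c, Hist2h2be and Hist1h2bc) took 60.6% and the top 6 took 77.7%. Of the 67 genes, 12 had more than 100 counts over the 6 libraries, 9 had 1 to 10 counts, and 10 were at 0 in all libraries. The latter were Hist1h2aa, Hist2h2aa1, Hist2h2aa2, Hist2h2ab, Hist1h2ba, Hist1h2bp, Hist2h2bb, Hist2h3b, Hist2h3c1 and Hist1h4b. A count of 0 allows up to 3 counts, which is 1.61e-05% to 1.81e-05% of a library and covers counting error only. Reads that match several genes or lie in overlapping genes are not covered. Hist2h2aa1 and Hist2h2aa2 share 88.1% and 100% of their windows of 100 bases with other histone genes. Hist2h3c1 and Hist2h2bb lie wholly within another gene on the same strand. A count of 0 in these genes may thus not mean that the RNA was absent.

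**Figure D1:**
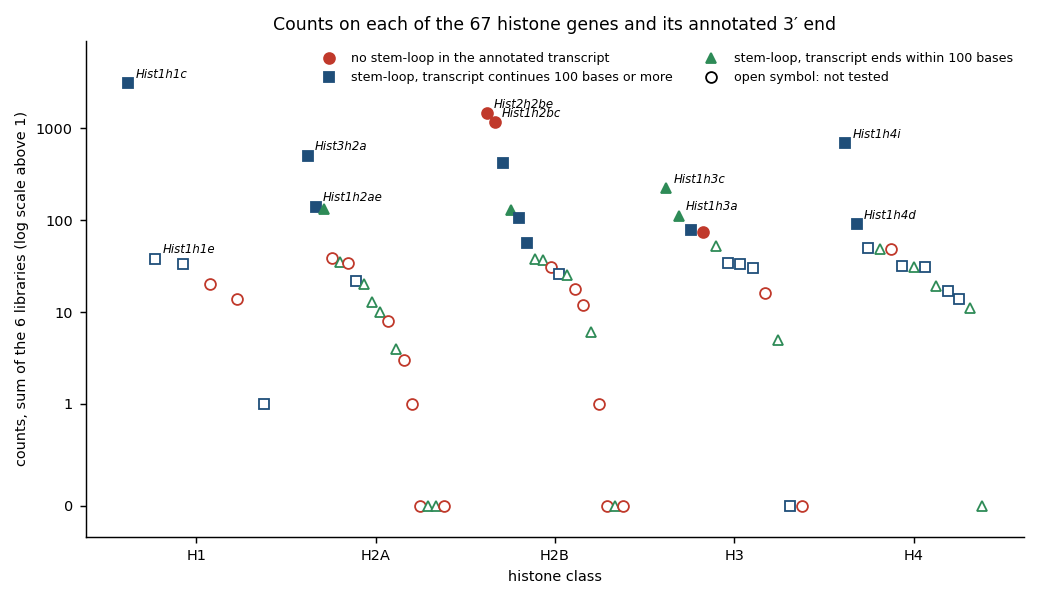
Counts summed over the 6 libraries (vertical axis, log scale above 1) for each of the 67 histone genes, ordered by count within the 5 classes. Color and shape give the annotated 3′ end, and filled symbols are the 16 genes that passed the filter on low counts. Hist1h1c stands above all others, and 10 genes lie at 0.

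Counts also depend on the length of the transcript, so levels were compared between genes per kilobase of gene length. The highest levels in each class, averaged over the 6 samples, were 18.9 CPM (counts normalised to the library size) per kilobase for Hist1h1c, 2.61 for Hist1h2ao, 9.57 for Hist1h2bc, 3.38 for Hist1h3c and 8.95 for Hist1h4i. The median of the 67 genes was 0.253 CPM per kilobase. By contrast, the 12 genes listed as replication-independent histone variants had a median of 48.2 CPM per kilobase. The 3′ ends of these variants were not examined. Whether poly(A)-selected RNA was sequenced was not given in the sources used here, and its part in the contrast of these medians was not tested. H2afz, which encodes the variant H2A.Z, was at 276 CPM per kilobase in control samples and 234 in DB2313 samples.

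Counts were spread unevenly over the annotated 3′ ends. The 23 genes whose annotated transcript has a stem-loop and ends within 100 bases of it took 10.1% of the histone counts. The 23 genes whose transcript continues for 100 bases or more took 58.8%, of which Hist1h1c alone held 55.9%, and the 21 genes with no annotated stem-loop took 31.2%. The median count over the 6 libraries, which gives each gene the same weight, was 34 for the genes that continue. It was 20 for those that end within 100 bases and 14 for those with no stem-loop. The median level per length followed another order. It was 0.453 CPM per kilobase for the genes that end within 100 bases, 0.246 for those that continue and 0.189 for those with no stem-loop. The bases annotated past a stem-loop add to the length by which these levels are divided. A poly(A) signal (the hexamer AATAAA, or its common variant ATTAAA, in the last 40 bases of the transcript) was annotated in 16 of 67 genes (23.9%), and these took 69.7% of the histone counts. Over all protein-coding transcripts of the annotation, 48.7% had such a signal. Hist1h1c and Hist2h2be are among these 16 genes, and Hist1h2bc is not. The median level was 0.312 CPM per kilobase with a poly(A) signal and 0.253 without. Of 13 other RNAs that are known to lack a poly(A) tail, 9 were at 0 in all libraries. The exception with a testable count was Rn7sk, the RNA of the 7SK complex, with 71, 99 and 92 counts in control samples and 162, 143 and 94 in DB2313 samples.

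To find out whether the histone genes differed between the groups, each gene was tested with the edgeR quasi-likelihood test with Benjamini-Hochberg adjustment over all 14883 genes that passed a filter on low counts. Of the 67 histone genes, 16 passed the filter and 51 did not. Because a gene can pass through 1 group alone, the counts and medians over these 16 genes are descriptions. With a threshold of 0.05 on the adjusted p, Hist2h2be and Hist3h2ba rose and Hist1h1c fell, and the other 13 did not pass. This was 12.5% higher and 6.25% lower, against 20.8% higher and 24.6% lower (45.4% in either direction) of all tested genes. None of the 16 passed the threshold with an absolute log2 fold change above 1, against 6.67% of all tested genes. The genes nearest to the threshold on its other side were Hist1h2ao (edgeR adjusted p = 0.0581) and Hist3h2a (edgeR adjusted p = 0.0855). None of the other 11 tested histone genes had an unadjusted p under 0.05.

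The median log2 fold change of the 16 genes was 0.34, and that of all tested genes was 0.02. In 4 of the 16 genes all DB2313 samples lay above all control samples, and in 1 gene below. Over all tested genes these shares were 25.6% and 27.5%. The sign of a log2 fold change depends on the scale on which it is set. When libraries were scaled to the 20 T cell markers, the values of all genes were shifted nearly alike, by -0.58 at their median on the log2 scale, so a gene that was between 0 and about this size with TMM scaling lay below 0. The shares of all tested genes called were then 1.2% higher and 77.1% lower. The median of the 16 histone genes was -0.24, and Hist1h1c, Hist1h2bc and Hist1h4d were called lower and none higher.

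**Figure D2:**
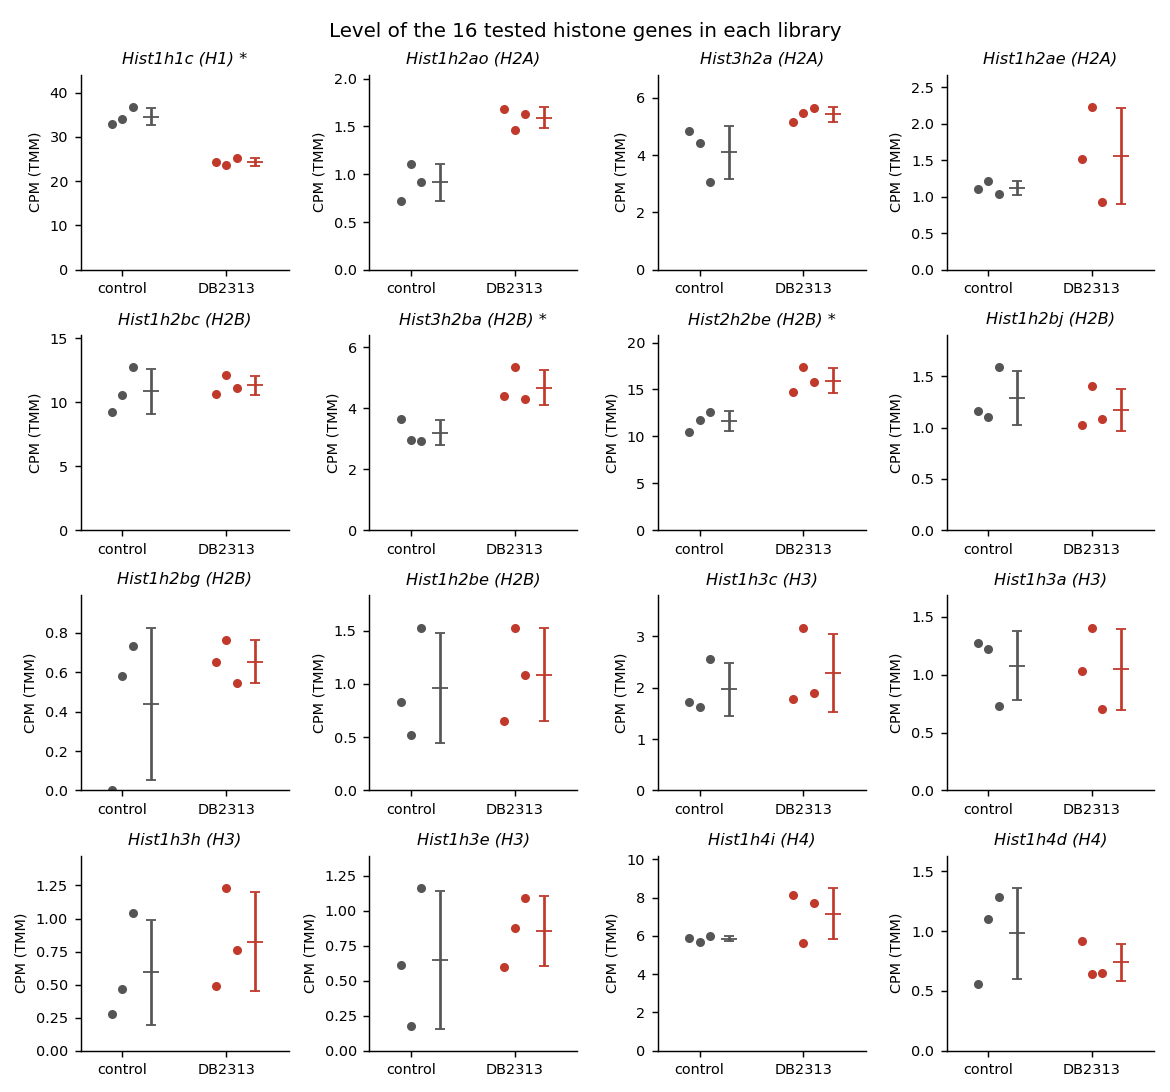
Level of the 16 tested histone genes in each library, in CPM after TMM scaling (vertical axis, from 0, with its own scale in each panel). Points are single libraries, the bars show the mean and SD of 3 libraries, and an asterisk marks the 3 genes past the adjusted p of 0.05. The groups are apart for Hist1h1c, Hist2h2be, Hist3h2ba, Hist1h2ao and Hist3h2a, and they overlap for the other 11.

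Linker histones bind the nucleosome where DNA enters and leaves it and help to compact chromatin. Hist1h1c (ENSMUSG00000036181, chr13:23738808-23740367, plus strand) encodes H1.2 and has 1 exon. The stem-loop printed above lies at chr13:23739512-23739527, with a further 840 bases to the end of the transcript. A poly(A) hexamer was found in the last 40 bases. Hist1h1c had 594, 585 and 601 counts in control samples and 448, 402 and 465 in DB2313 samples. This corresponded to 32.9, 34.0 and 36.7 CPM and to 24.3, 23.6 and 25.3 CPM, respectively. All DB2313 samples lay below all control samples. The mean fell from 34.6 ± 1.95 to 24.4 ± 0.862 CPM (SD, n = 3), a log2 fold change of -0.50 ± 0.07 (SE; edgeR adjusted p = 4.94e-06). Hist1h1c was called lower in all 14 other fits. In the fit scaled to the T cell markers its log2 fold change was -1.09, but there 77.1% of all tested genes were called lower. The 18 macrophage markers that fell moved in the same direction (median of the 20 markers, -0.96), and their part in this result was not tested.

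The other 5 H1 genes did not pass the filter. Hist1h1b had 5, 2 and 3 counts in control samples and 4, 2 and 4 in DB2313 samples, and Hist1h1e had 9, 7 and 3 against 10, 5 and 4. Hist1h1d and Hist1h1a were similarly low, with 33 and 14 counts over the 6 libraries. Hist1h1t, a testis form, had 1 count. H1f0, the replication-independent linker histone known from non-dividing cells, took more counts per length than Hist1h1c in both groups. The levels were 44.1 against 22.2 CPM per kilobase in control samples and 45.8 against 15.6 with DB2313. The log2 fold change of H1f0 was 0.05 ± 0.05 (SE; edgeR adjusted p = 0.404). With libraries scaled to the T cell markers its log2 fold change was -0.53.

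H2B forms the core of the nucleosome together with H2A, H3 and H4. Hist2h2be (ENSMUSG00000068854, chr3:96221119-96223738, plus strand), the H2B gene with the most counts, had 189, 202 and 206 counts in control samples and 272, 296 and 290 in DB2313 samples. In CPM the values were 10.5, 11.8 and 12.6 against 14.7, 17.3 and 15.8. All DB2313 samples lay above all control samples. The mean rose from 11.6 ± 1.06 to 15.9 ± 1.32 CPM (SD, n = 3) with a log2 fold change of 0.46 ± 0.11 (SE; edgeR adjusted p = 0.00124), which became -0.12 (adjusted p = 0.301) with scaling to the T cell markers. The T cell markers moved in the same direction with TMM scaling (median log2 fold change 0.59), and their part in this result was not tested. The sequence of Hist2h2be shared no window of 100 bases with another histone gene of the list.

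Hist3h2ba (ENSMUSG00000056895, chr11:58948920-58949533, plus strand) had 66, 51 and 48 counts in control samples and 81, 91 and 79 in DB2313 samples. The values were 3.66, 2.97 and 2.93 CPM against 4.39, 5.33 and 4.29 CPM, so the groups did not overlap. The log2 fold change was 0.55 ± 0.19 (SE; edgeR adjusted p = 0.0251) with TMM scaling and -0.04 (adjusted p = 0.875) with scaling to the T cell markers. The call was lost with DESeq2 (adjusted p = 0.0900) and in the edgeR fits without control sample 2 (adjusted p = 0.0882), without control sample 3 (adjusted p = 0.0790) or without DB2313 sample 2 (adjusted p = 0.110). This gene also shared no window of 100 bases with another one on the list. Its stem-loop lies at chr11:58949349-58949364, and the annotated transcript goes on for 169 bases.

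Hist1h2bc (ENSMUSG00000018102, chr13:23684199-23692908, plus strand) has 2 annotated exons and no annotated stem-loop. It had 166, 182 and 208 counts in control samples and 197, 207 and 204 in DB2313 samples. The ranges overlapped, and the log2 fold change was 0.06 ± 0.13 (SE; edgeR adjusted p = 0.716). With scaling to the T cell markers it was called lower at -0.52 (edgeR adjusted p = 7.17e-04). The other 3 tested H2B genes (Hist1h2bj, Hist1h2bg and Hist1h2be) had 57 to 129 counts in all, and their groups overlapped. The median of the 6 tested H2B genes was 0.32, and -0.26 with scaling to the T cell markers.

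H2A had 3 genes past the filter, and none passed the test. Hist1h2ao (ENSMUSG00000094248, chr13:21810465-21810944, plus strand) had the largest difference of the 16 tested histone genes, with 13, 19 and 15 counts in control samples and 31, 25 and 30 in DB2313 samples. The groups did not overlap. The log2 fold change was 0.80 ± 0.34 (SE; edgeR adjusted p = 0.0581), and the adjusted p ranged on both sides of the threshold among the alternatives, for example 0.0303 with library size scaling and 0.0475 with protein-coding genes only. The Hist1h2ao sequence shares 92.7% of its 100-base windows with other H2A genes, so its counts depend on how reads matching several genes were treated, which was not given in the sources used here.

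Hist3h2a (ENSMUSG00000078851, chr11:58954685-58956830, plus strand) lies downstream of Hist3h2ba on the same strand. It had 87, 76 and 50 counts in control samples and 95, 93 and 104 in DB2313 samples. The groups did not overlap, but control sample 3 was apart from the other two. The log2 fold change was 0.40 ± 0.18 (SE; edgeR adjusted p = 0.0855) with TMM scaling and -0.19 (edgeR adjusted p = 0.364) with scaling to the T cell markers. Its whole span lies within the gene Trim17 on the same strand, which had 8 to 24 counts per library, so reads of the pair may not be separable. Hist1h2ae (ENSMUSG00000069272, chr13:23570517-23571220, minus strand) had 20, 21 and 17 counts against 28, 38 and 17. These ranges overlapped, and its log2 fold change was 0.46 ± 0.36 (SE; edgeR adjusted p = 0.314).

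None of the 4 tested H3 genes passed the test, and their groups overlapped. Hist1h3c (ENSMUSG00000069310, chr13:23744973-23745602, minus strand) had 31, 28 and 42 counts in control samples and 33, 54 and 35 in DB2313 samples, with a log2 fold change of 0.21 ± 0.29 (SE; edgeR adjusted p = 0.588). Hist1h3a (ENSMUSG00000069265, chr13:23761853-23762386, minus strand) had 23, 21 and 12 counts against 19, 24 and 13, with a log2 fold change of -0.05 ± 0.38 (SE; edgeR adjusted p = 0.923). Hist1h3h (ENSMUSG00000101355, chr13:21717659-21718069, plus strand) had 5, 8 and 17 counts against 9, 21 and 14. Its log2 fold change was 0.48 ± 0.49 (SE; edgeR adjusted p = 0.456), and 92.0% of its 100-base windows are shared with other H3 genes. The last of the 4, Hist1h3e, had 11, 3 and 19 counts against 11, 15 and 20, with a log2 fold change of 0.41 ± 0.49 (SE; edgeR adjusted p = 0.533). At this depth the standard errors of the H3 genes, 0.29 to 0.49, exceeded each of their differences.

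Of the H4 genes, 2 passed the filter. Hist1h4i (ENSMUSG00000060639, chr13:22040636-22041362, minus strand) had 106, 98 and 98 counts in control samples and 150, 96 and 142 in DB2313 samples. DB2313 sample 2 lay at the level of the control group, and the other two lay above it. The log2 fold change was 0.29 ± 0.16 (SE; edgeR adjusted p = 0.138), and 0.44 (edgeR adjusted p = 0.0260) without DB2313 sample 2. With scaling to the T cell markers it was -0.29. Hist1h4d had a log2 fold change of -0.39 ± 0.41 (SE; edgeR adjusted p = 0.469). Below the filter, Hist1h4k had 17, 5 and 5 counts against 13, 3 and 5, and Hist1h4h had 6, 8 and 11 against 6, 15 and 3.

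**Figure D3:**
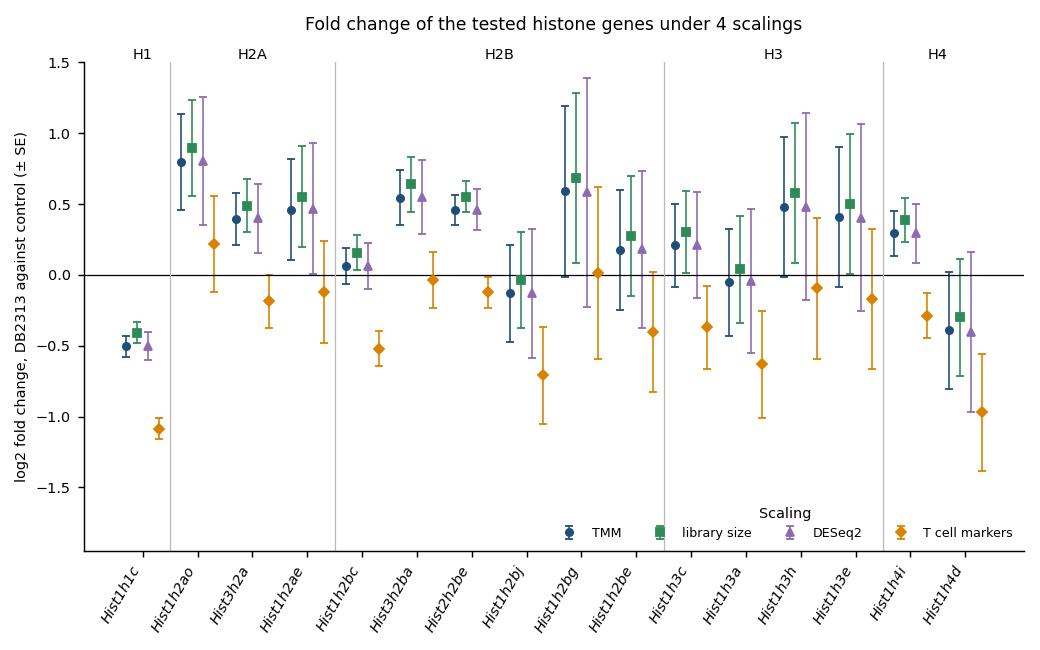
Log2 fold change (vertical axis, DB2313 against control, with its SE) of the 16 tested histone genes, grouped by class, with TMM scaling, library size scaling, DESeq2 and scaling to the T cell markers. Hist1h1c lies below 0 in all 4, whereas Hist2h2be and Hist3h2ba lie above 0 in 3 and below 0 with scaling to the T cell markers.

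As a share of all counts in a library, which needs no fit, the 67 genes took 0.00851% ± 0.000532 of the control counts and 0.00938% ± 0.000284 of the DB2313 counts (SD, n = 3), and the ranges did not overlap. The ratio of the means was 1.10. The share on H1 genes was 0.00343% ± 0.000161 against 0.00262% ± 0.000133, a ratio of 0.765. The ratios were 1.68 for H2A, 1.30 for H2B, 1.15 for H3 and 1.28 for H4. The H1 share was nearly all Hist1h1c, and the other 5 H1 genes had 48 counts in control samples and 58 in DB2313 samples in sum. The library ranges overlapped for H3 and did not for the other 4 classes. On this scale the median of all tested genes was 0.11 above 0 on the log2 scale, or 1.08-fold. The ratio of 1.10 for the 67 genes lay close to it. That ratio pools 0.765 for H1, nearly all Hist1h1c, with 1.15 to 1.68 for the other 4 classes. With TMM scaling the summed level of the 67 genes was 82.9 to 94.3 CPM in control samples and 89.0 to 94.5 CPM with DB2313, and these ranges overlapped. The 18 genes of 1000 bases or more had a ratio of 1.01, and the shorter genes had a ratio of 1.38. The longer genes include Hist1h1c, which held 1780 of their 3370 counts in control samples and 1315 of 3330 in DB2313 samples. The contrast of these ratios is therefore not one of length alone. No test was made of these shares.

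The 51 genes below the filter had 127, 138 and 143 counts in sum in control samples and 167, 176 and 210 in DB2313 samples, from the lowest library to the highest. No single one had more than 52 counts in all. When no filter was applied, Hist1h2ac and Hist1h3g also passed an edgeR adjusted p of 0.05. The following 4 genes were chosen after their values were seen. Hist1h2ac had 2, 0 and 0 counts in control samples and 7, 5 and 8 in DB2313 samples (edgeR adjusted p = 0.0357 without the filter). Hist1h2ai had 3, 3 and 2 against 8, 10 and 13 (edgeR adjusted p = 0.0574). In contrast, Hist1h3g had 9, 12 and 19 against 2, 8 and 2 (edgeR adjusted p = 0.0239), and Hist1h2bm had 12, 7 and 9 against 3, 3 and 3 (edgeR adjusted p = 0.105). Because these 4 genes were chosen by their values, they do not show how the 51 genes divide between rises and falls. A count of this size can move with a few reads. Hist1h3g is the gene with the TCTT loop printed above.

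The histone genes share much of their coding sequence. Of the 67 genes, 56 shared at least 1 window of 100 bases with another one on the list, and 25 shared more than 50% of their windows. In 24 genes, the annotated span overlapped another gene. Of the genes that passed the test, Hist2h2be and Hist3h2ba shared no window and Hist1h1c shared 5.07%, with Hist1h1d and Hist1h1e.

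Promoters were compared because histone genes of a class are known to share promoter elements. RefSeq promoters (GRCm38.p6, 250 bases before to 50 bases after the start) were matched to 61 of the 67 genes, and Hist2h2be and Hist1h2bc were not matched. The motifs were searched on both strands. CCAAT, the site bound by the NF-Y complex, was found in 85.2% of the histone promoters and in 37.9% of the promoters of all genes. It was found in all matched H1, H2A, H2B and H3 promoters and in 25% of the H4 promoters. TATAAA, counted at any position in the promoter, was found in 57.4% against 14.2%. ATTTGCA, the core of the octamer bound by Oct-1, was found in 21.3% against 3.98%. It was found in 7 of 17 H2A and 6 of 16 H2B promoters and in none of the other classes. Some H2A and H2B genes on opposite strands, such as Hist1h2ae and Hist1h2bg, have promoter windows that overlap. A motif in the shared bases is counted for both genes, so these shares are not from separate promoters throughout. Here the 200 bases before the start are shown for the gene that fell (Hist1h1c, chr13:23738607-23738806, plus strand), a gene that rose with TMM scaling (Hist3h2ba, chr11:58948711-58948910, plus strand) and the most abundant H4 gene (Hist1h4i, chr13:22041363-22041562, minus strand). Capitals mark the CCAAT and the TATAAA motif on either strand:
Hist1h1c: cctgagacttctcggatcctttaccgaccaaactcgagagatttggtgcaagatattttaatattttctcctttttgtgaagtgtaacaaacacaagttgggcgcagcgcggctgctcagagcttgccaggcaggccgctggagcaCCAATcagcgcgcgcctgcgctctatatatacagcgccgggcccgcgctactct
Hist3h2ba: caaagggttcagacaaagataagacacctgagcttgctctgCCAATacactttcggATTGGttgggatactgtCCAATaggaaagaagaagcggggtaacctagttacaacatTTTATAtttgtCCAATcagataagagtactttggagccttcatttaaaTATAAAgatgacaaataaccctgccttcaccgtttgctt
Hist1h4i: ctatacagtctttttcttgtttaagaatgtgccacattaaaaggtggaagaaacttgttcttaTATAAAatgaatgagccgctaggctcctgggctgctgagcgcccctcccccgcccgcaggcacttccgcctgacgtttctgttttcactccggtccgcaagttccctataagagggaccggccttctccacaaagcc

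In these windows Hist1h1c had 1 CCAAT and no TATAAA, Hist3h2ba had 4 CCAAT and 2 TATAAA, and Hist1h4i had 1 TATAAA and no CCAAT. A match says only that these letters are present.

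The genes that make, store and place histones were described next, each list beside its count with TMM scaling and with scaling to the T cell markers. The counts are read against all tested genes, of which 20.8% were higher and 24.6% lower with TMM scaling and 1.2% higher and 77.1% lower with scaling to the T cell markers. Of the 12 replication-independent histone variants, 5 rose (41.7%) and 2 fell (16.7%) with TMM scaling, against 0 and 11 with scaling to the T cell markers. H2afv, which encodes a second form of H2A.Z, had the largest rise. It went from 57.6 ± 6.80 to 83.6 ± 2.52 CPM (SD, n = 3) with a log2 fold change of 0.54 ± 0.06 (SE; edgeR adjusted p = 1.81e-07), which was -0.04 with scaling to the T cell markers. H2afx, whose product is phosphorylated at DNA breaks, was at 79.4, 78.6 and 76.5 CPM in control samples and at 99.8, 108 and 101 CPM in DB2313 samples (log2 fold change 0.40 ± 0.04, SE). H2afz was at 474, 495 and 504 CPM against 417, 413 and 417 CPM and fell by 0.24 on the log2 scale (SE 0.03; edgeR adjusted p = 1.95e-06). H2afy2, a form of macroH2A, was called lower at -0.83 (edgeR adjusted p = 0.0413) from a mean of 1.92 CPM, and the call was lost with DESeq2 (adjusted p = 0.120), library size scaling and upper quartile scaling, with no filter, and without control sample 1 or 3 or DB2313 sample 1 or 2.

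Of the 27 genes for transcription, processing and decay of histone mRNA, 11 rose (40.7%) and 4 fell (14.8%) with TMM scaling, against 0 and 27 with scaling to the T cell markers. Slbp, the stem-loop binding protein, was at 61.9, 63.6 and 63.3 CPM in control samples and at 81.3, 80.0 and 83.1 CPM in DB2313 samples. Its log2 fold change was 0.37 ± 0.05 (SE; edgeR adjusted p = 7.47e-07) and became -0.21 with scaling to the T cell markers. Tut4, an enzyme that adds uridines to histone mRNA during decay, had a log2 fold change of 0.38 ± 0.05 (SE), and -0.20 with the latter scaling. Npat, the coactivator of histone gene transcription, was at 29.7 ± 2.14 against 34.1 ± 1.84 CPM (SD, n = 3) with a log2 fold change of 0.20 ± 0.07 (SE; edgeR adjusted p = 0.0306). The call of Npat was lost with DESeq2 and without control sample 2 or DB2313 sample 3, and its log2 fold change was -0.38 with scaling to the T cell markers. The largest falls were those of Mblac1, a nuclease for histone pre-mRNA (-0.55 ± 0.20, SE; edgeR adjusted p = 0.0315), and Lsm10, a component of the U7 snRNP (-0.34 ± 0.10, SE; edgeR adjusted p = 0.00556). The call of Mblac1 was lost with DESeq2 (adjusted p = 0.0987), with library size or upper quartile scaling, and without control sample 2 or 3 or DB2313 sample 1 or 3.

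Among the 23 histone chaperones and importers, 12 rose (52.2%) and 1 fell (4.35%) with TMM scaling, against 0 and 22 with scaling to the T cell markers. Daxx, which deposits the variant H3.3 together with Atrx, rose from 161 ± 1.55 to 231 ± 4.39 CPM (SD, n = 3; edgeR adjusted p = 1.21e-11), and its partner Atrx fell from 208 ± 14.1 to 169 ± 8.57 CPM (edgeR adjusted p = 8.83e-06). The log2 fold changes were 0.52 and -0.30, and that of Daxx was -0.06 with scaling to the T cell markers. Dnajc9, a cochaperone for H3 and H4, had a log2 fold change of 0.47 ± 0.05 (SE), and -0.11 with the latter scaling.

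Of the 44 genes of S phase and DNA replication, 21 rose (47.7%) and 3 fell (6.82%) with TMM scaling, and with scaling to the T cell markers the counts were 0 and 43. The median was 0.16. Slbp is on this list too and had its largest rise. Next came Pole2, a subunit of DNA polymerase epsilon, at 0.34 ± 0.12 (SE; edgeR adjusted p = 0.0256), a call that was lost with DESeq2 and without control sample 3 or DB2313 sample 2 or 3, and that was -0.24 with scaling to the T cell markers. The largest falls were those of the transcription factors E2f2 (-0.31 ± 0.05, SE) and E2f1 (-0.30 ± 0.07, SE). All 25 genes of G2 and mitosis had log2 fold changes above 0 with TMM scaling, and 5 of them (20%) passed the test, close to the 20.8% of all tested genes called higher. With scaling to the T cell markers all 25 were called lower, against 77.1% of all tested genes. Top2a, the topoisomerase of condensing chromosomes, was at 258, 250 and 244 CPM against 281, 293 and 309 CPM (0.23 ± 0.04, SE), and Ndc80 of the kinetochore had a log2 fold change of 0.27 ± 0.10 (SE), a call that was lost with DESeq2 and without control sample 1 or 2 or DB2313 sample 1 or 2. With scaling to the T cell markers the log2 fold changes were -0.35 and -0.31.

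Rn7sk had a log2 fold change of 0.54 ± 0.19 (SE; edgeR adjusted p = 0.0254). Its groups overlapped, its call was lost with DESeq2 (adjusted p = 0.0707) and without control sample 1 or DB2313 sample 1 or 2, and the value was -0.04 with scaling to the T cell markers. It was the only 1 of the 13 other RNAs without a poly(A) tail that passed the filter.

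**Figure D4:**
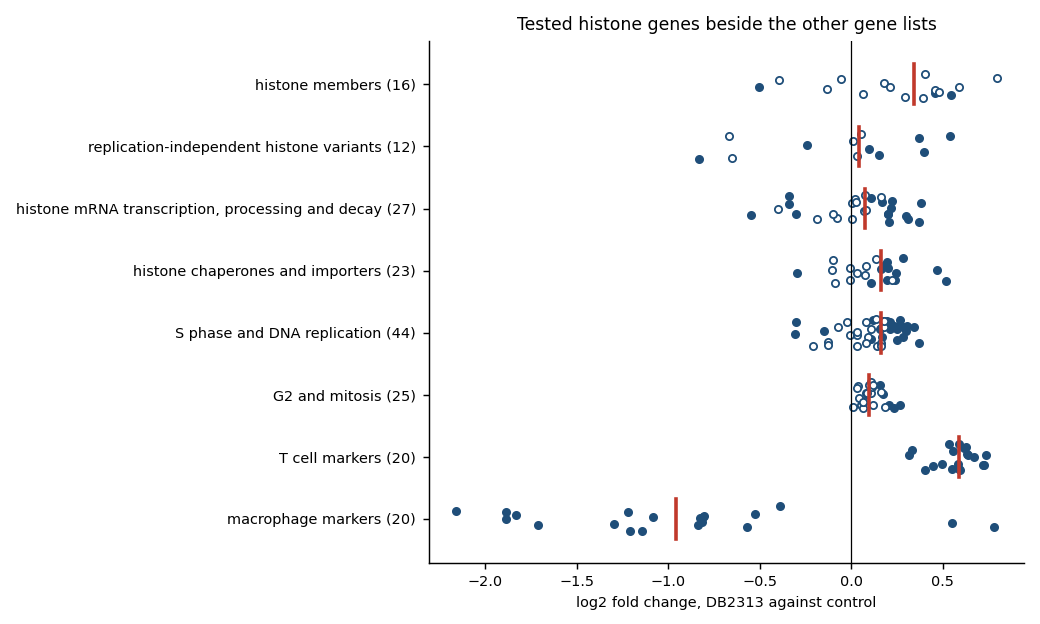
Log2 fold change (horizontal axis, DB2313 against control, TMM scaling) of the tested histone genes and of 7 other gene lists, with the number of tested genes in brackets. Filled points passed an edgeR adjusted p of 0.05, open points did not, and red lines are medians. The histone genes spread from -0.50 to 0.80 around a median of 0.34, and the T cell markers (median 0.59) and macrophage markers (median -0.96) lie on opposite sides of 0.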

How the data were processed

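Per the labels, CASAVA 1.8, HISAT2 2.0.5 and featureCounts 1.5.0-p3 were used, whereas the methods of the study name LifeScope. Genome build, strand setting and the treatment of reads matching several genes were not given in the sources used here. The authors deposited raw counts per gene, and no column of per-sample values was left without a sample.

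The counts of all genes were filtered (filterByExpr) and scaled (TMM), and the groups were compared with edgeR 4.0.16 (glmQLFit and glmQLFTest, R 4.3.3), with Benjamini-Hochberg adjustment over 14883 genes. CPM are TMM-scaled. DESeq2 1.42.0, other scalings and filters, a replicate block and leaving out each sample were tried. The scripts were tested on simulated data. The limit given for a count of 0 covers counting error only, because no molecular identifiers were used and several reads can stem from 1 molecule.

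The histone genes and the lists were chosen with earlier results of these data known. Named were the 3 most abundant genes per kilobase in each class, the genes past the test (3 at most in each direction) and, from each list of related genes, the 2 largest rises and falls past the test with a mean of at least 1 CPM, with Slbp, Npat, H2afx, H2afz and H1f0 in any case. The other tested histone genes and those at 0 were named to account for all of them. Of 28 symbols on the histone mRNA list, 4 were older names, and 1 of these named a gene already listed, which left 27 genes. Stem-loops were read from GENCODE mouse release 21 transcripts and promoters from RefSeq (GRCm38.p6).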

Additional observations from a re-analysis of the deposited data

How the results depend on the processing

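Hist1h1c was called lower in all fits. The number of histone genes called higher was 2 with TMM scaling, 1 with DESeq2, 5 with library size scaling, 4 with upper quartile scaling, 0 with scaling to the T cell markers, and 3 each with no filter, with at least 10 counts in every sample and with protein-coding genes only. The number called lower was 1, and it was 3 with scaling to the T cell markers and 2 with no filter on low counts. Of all tested genes, 20.8% were called higher with TMM scaling, 33.1% with library size scaling and 1.2% with scaling to the T cell markers. The shares called lower were 24.6%, 19.2% and 77.1%, respectively. The number past the fold threshold was 0, and it was 1 with scaling to the T cell markers (Hist1h1c) and 2 with no filter. When each sample was left out, 1 to 3 genes were called higher, 1 to 2 lower and 0 to 2 passed the fold threshold, among 18 to 21 histone genes that then passed the filter. With scaling to the T cell markers the median log2 fold change became -0.24 for the 16 genes, -1.09 for H1, -0.12 for H2A, -0.26 for H2B, -0.27 for H3 and -0.63 for H4. The H4 median was -0.05, and it was 0.045 with library size scaling, 0.014 with upper quartile scaling, 0.079 without control sample 3 and 0.066 without DB2313 sample 2. Leaving out each sample gave medians of 0.11 to 0.44 for the 16 genes, -0.54 to -0.46 for H1, 0.39 to 0.73 for H2A, 0.036 to 0.51 for H2B, 0.00081 to 0.77 for H3 and -0.19 to 0.079 for H4. The ratio of the histone share was 1.10, and it was 1.07 to 1.14 when each sample was left out. With only members under 1000 bases, which leaves out Hist1h1c, it was 1.38.

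With scaling to the T cell markers the log2 fold change was -0.19 for Hist3h2a, -0.12 for Hist1h2ae, -0.52 for Hist1h2bc, -0.035 for Hist3h2ba, -0.12 for Hist2h2be, -0.37 for Hist1h3c, -0.095 for Hist1h3h, -0.29 for Hist1h4i, -0.043 for H2afv, -0.19 for H2afx, -0.20 for Tut4, -0.21 for Slbp, -0.062 for Daxx, -0.11 for Dnajc9, -0.24 for Pole2, -0.31 for Ndc80, -0.35 for Top2a, -0.040 for Rn7sk, -0.38 for Npat and -0.53 for H1f0, all above 0 with TMM scaling. Hist1h3a, at -0.05 with TMM scaling, was at 0.040 with library size scaling, 0.011 with upper quartile scaling, 0.088 without control sample 1, 0.045 without control sample 2 and 0.17 without DB2313 sample 3. Over the fits that left out each sample, Hist1h2bc ranged from -0.044 (without control sample 1) to 0.19. Hist1h3c was at -0.089 without DB2313 sample 2. The reversals with scaling to the T cell markers are 1 shift nearly common to all genes, and for the others the cause was not tested. Without that scaling, over 30 named genes and 388 comparisons with an alternative, 337 kept direction and call, 35 lost the call, 9 gained it and 7 reversed. Of the 127 genes on the 5 histone and cell cycle lists, 51 were called higher and 9 lower with TMM scaling. With library size scaling 84 were called higher, where 33.1% of all tested genes were. With scaling to the T cell markers 0 were higher and 124 lower. When each sample was left out, 38 to 44 were higher and 7 to 9 lower.

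The sample numbers did not pair the samples (same-numbered samples correlated at -0.06 to -0.02). With a replicate block, 2 histone genes were called higher, 1 lower and 0 past the fold threshold. Depth limits most of the list, since 55 of 67 genes had 100 counts or fewer in all.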

Other observations

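Of the histone pseudogenes, which the choice by biotype left out, Hist3h2bb-ps had 4, 0 and 1 counts in the control group and 3, 6 and 5 in the DB2313 group, Hist1h2aj had 4, 0 and 0 counts against 6, 0 and 0, and Hist1h2al was at 0 in all libraries. Hist1h2bq and Hist1h2br, a pair of H2B genes with nearly all of their 100-base windows shared with other H2B genes (100% and 99.8%), had 18 and 1 counts over the 6 libraries.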
